A study of Mus musculus with 74 samples.

Results

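The 10 genes described here encode the DLK and JNK signalling module and were chosen by name: the MAP kinase kinase kinases Map3k12 (DLK) and Map3k13 (LZK), the MAP kinase kinases Map2k4 and Map2k7, the Jun N-terminal kinases Mapk8 (JNK1), Mapk9 (JNK2) and Mapk10 (JNK3), and the JIP scaffolds Mapk8ip1, Mapk8ip2 and Mapk8ip3. They are 10 of the 53379 genes in the count files, and all 10 were measured and tested in both kinds of sample. Whole L4 dorsal root ganglia (DRG) came from female C57BL/6 wild type mice of 10 to 12 weeks, 4 uninjured and 4 taken 1 day (1d) after spinal cord injury (SCI), a dorsal hemisection at T9/10. The study sorted neurons as ascending ones from female Thy1YFP16 mice of 10 to 20 weeks. In these mice a neuronal Thy1 transgene labels large-diameter sensory neurons with YFP. Cells of their L4 DRG were sorted by fluorescence (FACS) into 3 wells of about 100 cells per mouse, from 6 naive mice and from 4 mice each at 1d and 3d after sciatic nerve injury (SNI, a nerve crush) or after SCI. The injuries differ in the axon branch they reach, the peripheral branch for SNI and the central branch for SCI.

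DLK sits on vesicles in axons and senses axon damage. Once active, it or its relative LZK phosphorylates the MAP kinase kinases, which phosphorylate the JNKs, and the JIP scaffolds hold these kinases together and tie them to axonal motors. Active JNK phosphorylates Jun in the nucleus, and in injured sensory neurons this route leads to the induction of Jun and Atf3. The kinases are switched by phosphorylation, which RNA sequencing does not measure, so the values below are mRNA levels only.

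Whole DRG libraries held 21959030 to 44493319 reads on genes, and sorted mice held 30518187 to 83599972 reads over their 3 wells. After SCI, 4 of 5 red blood cell genes rose in whole DRG, and their summed level was 13.3 to 20.8 CPM (reads per 1000000 reads of the library) in uninjured mice and 20.6 to 89.96 CPM after SCI. No neuron marker (of 6), large-fibre marker (of 4) or nociceptor marker (of 4) passed the test there, while Glul of 9 glial markers rose (0.32 on the log2 scale, adjusted p = 0.0358), and Lum of 4 fibroblast markers (-0.71, adjusted p = 0.0950) and Cx3cr1 of 4 macrophage markers (-0.62, adjusted p = 0.0871) fell. Among the 66 sorted wells, 20 were rich in glial reads. In these, 9 markers of Schwann cells and satellite glia took 3.28% to 14.4% of the reads, and 0.177% to 1.29% in the other 46 wells. Neuron markers took a median of 0.0161% of the reads in these glia-rich wells and 2.40% in the others. Their ranges overlapped, with 0.0058% to 1.37% in glia-rich wells and 0.777% to 3.13% in the others. All 3 wells were glia-rich in SNI 3d replicate 3 and in SCI 3d replicate 3. Neuron markers took 1.37%, 0.945% and 0.0077% of the reads in the wells of the first mouse. In the second mouse they took 0.929%, 0.0058% and 0.0118%. Nociceptor markers, which the YFP gate should leave out, summed to between 1.03 and 12130 CPM over the sorted mice. In whole DRG they summed to 2257 to 2820 CPM. Their median was 1736 CPM in naive mice, 151.4 at SNI 1d, 37.6 at SNI 3d, 1375 at SCI 1d and 436.3 at SCI 3d. Naive mice ran from 2.14 to 11630 CPM and SNI 3d mice from 1.03 to 194.5 CPM. Large-fibre markers had a median of 3770 CPM in naive sorted mice and 3541 CPM in uninjured whole DRG. The part of these marker sums in the differences between sorted groups was not tested. Results in sorted neurons are given with and without the glia-rich wells; leaving these out keeps 20 of 22 mice.

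Compared per length of exon in whole DRG, Mapk8ip1, Mapk8ip2 and Map2k4 were the most abundant members, and the upstream kinases were the rarest. In whole DRG of uninjured mice Mapk8ip1 (JIP1) had the highest mean level, 130.3 ± 13.2 RPKM (reads scaled to exon length and library size; SD, n = 4), followed by Mapk8ip2 (JIP2) at 117.7 ± 16.6 RPKM. The ranges of these 2 scaffolds overlapped, and both lay above Map2k4 at 46.5 ± 1.02 RPKM. Mapk9 and Mapk8ip3 (JIP3) came next at 38.5 ± 1.26 and 36.4 ± 4.08 RPKM, again with overlapping ranges. Mapk10 had 21.6 ± 1.21 RPKM, Map2k7 had 15.5 ± 3.01 RPKM and Mapk8 had 8.74 ± 0.416 RPKM. The upstream kinases were lowest, with 7.32 ± 1.01 RPKM for Map3k12, whose range overlapped that of Mapk8, and 1.94 ± 0.0813 RPKM for Map3k13, which lay below every other member in all 4 mice.

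The order of the mean levels in sorted neurons differed in which JNK and which scaffold led, and the median share of DLK beside LZK was lower. In the 6 naive mice Mapk10 had a mean of 24.4 ± 12.0 RPKM, Mapk8ip2 22.9 ± 9.20 RPKM and Map2k4 21.7 ± 10.2 RPKM, and neighbours in the order overlapped throughout. Mapk10, the JNK that is found mainly in neurons, made up 30.7% to 32.5% of the length-scaled JNK reads in uninjured whole DRG and 38.1% to 69.1% in naive sorted neurons. Mapk9 led in whole DRG, with 55.8% to 56.1%, and had 21.1% to 43.3% in the sorted neurons. It also led in naive replicate 5, with 43.3% against 38.1% for Mapk10. Among the scaffolds, Mapk8ip1 made up 44.8% to 46.6% in whole DRG and 12.0% to 33.1% in sorted neurons, where Mapk8ip2 took 45.2% to 64.1%. Map3k12 made up 77.1% to 81.5% of the DLK and LZK reads in whole DRG (median 78.55%) and 39.4% to 98.1% in sorted neurons (median 50.4%). The highest share was that of naive replicate 6, which had 6 Map3k13 reads. The shares in sorted neurons were 37.9% to 69.6% for Mapk10 and 19.1% to 99.4% for Map3k12 (median 48.25%) when the glia-rich wells were left out. The whole DRG and sorted libraries were made with different kits from different mouse lines, so the levels are set side by side and were not tested.

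**Figure D1:**
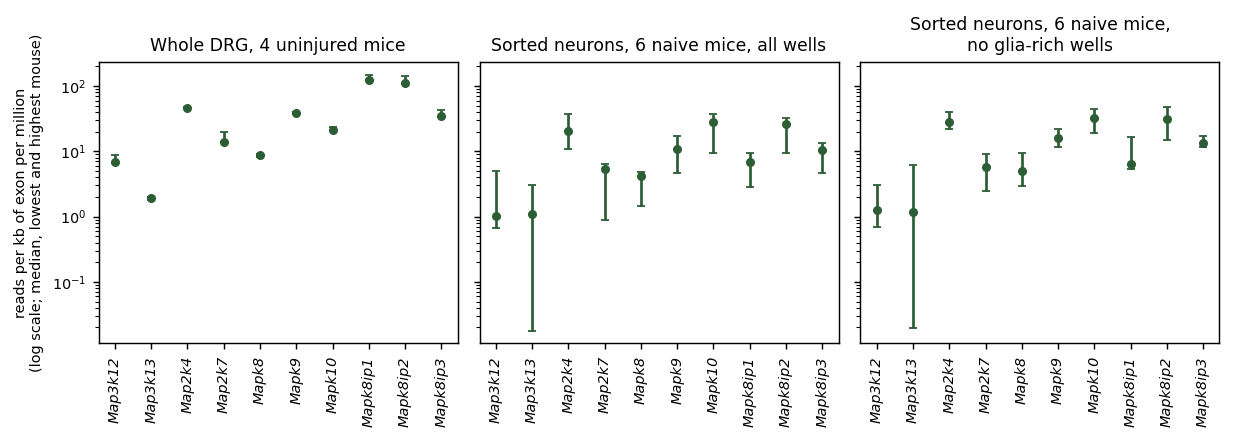
Level of each member per length of exon, in RPKM on a log axis, in whole DRG of 4 uninjured mice and in sorted neurons of 6 naive mice with all wells and without the glia-rich wells; points are medians and bars run from the lowest to the highest mouse. Mapk8ip1 and Mapk8ip2 are highest in whole DRG, Mapk10, Mapk8ip2 and Map2k4 are highest in sorted neurons, and Map3k13 reaches down to 0.0179 RPKM in 1 naive mouse.

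Since Jun and Atf3 bind AP-1 and cyclic AMP response element (CRE) letters, the promoter windows of the members were searched for both motifs. RefSeq windows of GRCm38.p6, each 250 bases before to 50 bases after a transcript start, were found for 9 of the 10 members in 14 windows. The AP-1 letters TGANTCA were in a window of 1 member, Map2k7, and in 7.81% of all 32851 windows. The CRE letters TGACGTCA were in a window of 1 member, Mapk10, and in 1.79% of all windows. Each motif reads the same on both strands, and the motifs do not overlap one another. The windows of Jun and Atf3 themselves held neither. The 30 bases around each match are shown with the motif in capitals, from chr8:4240002-4240031 on the plus strand and from chr5:103211345-103211374 on the minus strand. The Map2k7 match begins 92 bases before a further RefSeq transcript start that lies inside the gene, downstream of its outermost start, and the window at the outermost start held no match. The Mapk10 match begins 29 bases before the outermost start of that gene. A match describes the letters and not a bound site.
Map2k7: tctgtccctctTGATTCAgcagaatgtctt
Mapk10: tctctgggcttTGACGTCAtgtgtgctcct

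The first comparison asked whether SCI changed the level of these genes in whole DRG. None of the 10 members was called at an adjusted p under 0.1 by edgeR's quasi-likelihood test, where 2.32% of 17616 genes were, and DESeq2 also called none of them. The fitted log2 fold changes of the members ran from -0.28 to 0.10 with a median of -0.058, beside a median of 0.014 over all genes. They were negative for 8 members, where 46.9% of all genes were negative. At an unadjusted p under 0.05 there was 1 member, Map3k12, against 14.6% of all genes. In 4 members the uninjured and SCI mice did not overlap, against 11.0% of all genes, and these 4 had the smallest p that an exact permutation test of 4 against 4 mice allows, 0.0286. With standard errors between 0.052 and 0.125 on the log2 scale, the 95% intervals of all 10 members lay between -0.50 and 0.24. In whole DRG, a change in the amount of a cell type and a change of RNA per cell cannot be told apart.

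Map3k12 encodes DLK (ENSMUSG00000023050.8, chr15:102497646-102517064, minus strand of GRCm38). It had 79.4, 62.7, 60.01 and 61.2 CPM in the uninjured mice and 52.1, 49.9, 59.4 and 54.6 CPM after SCI. Every SCI mouse was below every uninjured mouse, though SCI replicate 3 came close to uninjured replicate 3. The log2 fold change was -0.28 ± 0.10 (SE), with a 95% interval from -0.50 to -0.063, an unadjusted p of 0.0165 and an adjusted p of 0.223 in edgeR. The change became smaller without uninjured replicate 1, which stood high, at -0.18 with an adjusted p of 0.249. Without SCI replicate 2 the unadjusted p was 0.0506. The authors, in their own DESeq2 comparison, reported DLK as significantly decreased after SCI at an adjusted p under 0.05, which differs from the result here. An exon of Map3k12 overlaps one of Pcbp2 on the other strand, and whether reads were counted by strand is not given in the sources used here. Exons of Map3k13, Mapk8ip1 and Mapk8ip3 also overlap those of other genes, which for Map3k13 is the noncoding 1300002E11Rik on the same strand.

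Map3k13 encodes LZK (ENSMUSG00000033618.6, chr16:21794346-21933439, plus strand). Its counts were the lowest of the members, at 17.5, 15.9, 17.3 and 16.9 CPM before and 15.3, 15.7, 20.9 and 14.8 CPM after SCI. The groups overlapped, with a log2 fold change of -0.014 and a 95% interval up to 0.24 (adjusted p = 0.971). SCI replicate 3 alone was above all uninjured mice. The sign turned when single mice were left out.

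Neither MAP kinase kinase passed the test. Map2k4 (MKK4, ENSMUSG00000033352.11, chr11:65688243-65788297, minus strand), which phosphorylates JNK and p38, had 212.3, 214.7, 218.0 and 223.3 CPM in uninjured mice and 226.4, 226.2, 224.2 and 230.7 CPM after SCI. Every SCI mouse was above every uninjured mouse, by little. The log2 fold change was 0.064 ± 0.052 (SE), with an adjusted p of 0.619 in edgeR. Map2k7 (MKK7, ENSMUSG00000002948.19, chr8:4238740-4247897, plus strand), which acts on JNK alone, had 76.6, 52.9, 55.5 and 52.7 CPM before and 47.9, 54.1, 58.8 and 49.2 CPM after SCI. These groups overlapped, and uninjured replicate 1 set most of the difference. The log2 fold change of -0.18, with a 95% interval from -0.45 to 0.10 (adjusted p = 0.566), became -0.029 without that mouse.

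No JNK passed the test. Mapk9 (ENSMUSG00000020366.18, chr11:49846751-49886421, plus strand) had 271.6, 254.3, 254.4 and 265.5 CPM in uninjured mice and 274.4, 274.6, 292.8 and 274.7 CPM after SCI. All SCI mice were higher, and the log2 fold change was 0.10 ± 0.056 (SE) with an adjusted p of 0.477. Mapk8 (ENSMUSG00000021936.14, chr14:33377898-33447158, minus strand) had 93.0, 102.3, 101.3 and 103.5 CPM before and 101.0, 94.6, 89.9 and 100.7 CPM after SCI. Mapk10 (ENSMUSG00000046709.16, chr5:102907948-103211334, minus strand) had 258.6, 228.5, 231.9 and 241.1 CPM before and 234.4, 218.2, 260.2 and 220.9 CPM after SCI. Both overlapped between the groups, with log2 fold changes of -0.052 and -0.040 and adjusted p-values of 0.768 and 0.849.

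The scaffolds had the largest counts and lower means after SCI, none of which passed the test. Mapk8ip1 (ENSMUSG00000027223.15, chr2:92383676-92401263, minus strand) had 696.8, 572.3, 570.2 and 581.6 CPM in uninjured mice and 530.2, 566.7, 563.1 and 544.5 CPM after SCI. All SCI mice were lower, and the gap between the groups was narrow beside the height of uninjured replicate 1. The log2 fold change was -0.14 ± 0.074 (SE), with an adjusted p of 0.445, and it was -0.058 without that mouse. Mapk8ip2 (ENSMUSG00000022619.5, chr15:89453913-89464468, plus strand) had 811.9, 633.5, 615.5 and 621.9 CPM before and 607.8, 594.9, 621.7 and 581.5 CPM after SCI. Here 1 SCI mouse lay within the range of the uninjured mice, and the log2 fold change was -0.16 (adjusted p = 0.464), or -0.050 without uninjured replicate 1. Mapk8ip3, which links JNK to kinesin and dynein (ENSMUSG00000024163.17, chr17:24892153-24936977, minus strand), had 618.3, 511.9, 488.3 and 503.6 CPM before and 497.8, 498.8, 578.9 and 453.9 CPM after SCI. Its groups overlapped, with a log2 fold change of -0.064 and an adjusted p of 0.806. Uninjured replicate 1 was the highest mouse for Map3k12, Map2k7 and all 3 scaffolds, and its summed neuron markers, at 6840 CPM, were the lowest of the 8 mice while its large-fibre markers, at 4535 CPM, were the highest of the 4 uninjured mice. Nefh made up most of that large-fibre sum, with 2746 to 4204 CPM in uninjured mice, where Ntrk3, the next highest, had 212.0 to 289.7 CPM. The sum does not show how Pvalb, Ntrk3 and Ldhb went. The part of these marker sums in the results was not tested.

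**Figure D2:**
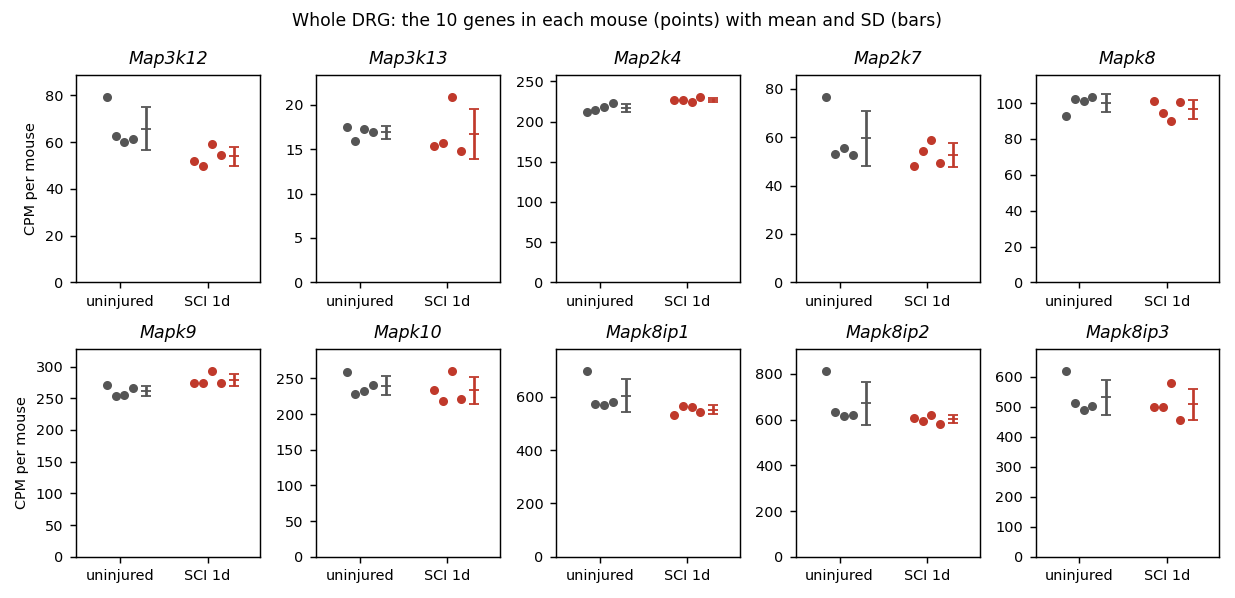
CPM of each member in the 4 uninjured and 4 SCI 1d mice of whole DRG (points, one per mouse, linear axes from 0) with the mean and SD beside them. Uninjured replicate 1 stands high for Map3k12, Map2k7, Mapk8ip1 and Mapk8ip2, and the groups are separate for Map3k12, Map2k4, Mapk9 and Mapk8ip1.

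Around the module, 41 further genes of its pathway were read in the same fit. At an adjusted p under 0.1, 3 rose and 1 fell, where 2.32% of all genes were called in either direction. The nuclear targets held the largest changes, with 2 of 5 genes higher. Atf3, the transcription factor induced by axon injury, rose from 8.75, 10.4, 8.42 and 10.8 CPM to 76.2, 40.9, 27.1 and 57.9 CPM, a log2 fold change of 2.39 ± 0.27 (SE; adjusted p = 0.00431). Jun, the substrate that gave JNK its name, rose from 92.8, 88.5, 78.6 and 75.0 CPM to 149.8, 135.4, 122.9 and 129.5 CPM, by 0.68 ± 0.088 on the log2 scale (adjusted p = 0.00893). No SCI mouse overlapped an uninjured mouse for either gene. Among 5 phosphatases Dusp1, which removes the activating phosphates from JNK, p38 and ERK, rose by 0.49 ± 0.12 (adjusted p = 0.0887). Of 4 cytoskeletal targets Dcx, a microtubule-binding protein, fell by 0.50 on the log2 scale (adjusted p = 0.0358) from a low level, 5.56 to 6.18 CPM in uninjured mice and 4.05 to 4.17 CPM after SCI. With the replicate number as a block, Dusp1 and Dcx no longer passed (adjusted p = 0.133 and 0.137), while Jun and Atf3 did. Dusp1 and Dcx also lost the call when single mice were left out, with adjusted p-values of up to 0.244 and 0.125. No gene passed among 7 other MAP3Ks, 5 DLK regulators, 3 other scaffolds, 6 genes of the p38 arm, 4 of the ERK arm and 2 partners in axon degeneration. The median log2 fold change over the 41 genes was -0.029.

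In sorted neurons the members followed the kind of well. In wells that were not glia-rich, all members except Map3k13 had at least 1 CPM in 46 of 46 wells, and none was at 0 reads. In glia-rich wells the median was 0.0987 CPM for Map3k12 against 8.04 CPM in the other wells, and 6 of 20 glia-rich wells held no Map3k12 read. Map3k13 had a median of 0.115 CPM against 9.59 CPM, and yet reached 235.0 CPM in 1 glia-rich well. Map2k4 had medians of 0.622 and 125.1 CPM, Mapk9 of 0.694 and 87.6 CPM, and Mapk10 of 2.07 and 351.7 CPM, in this order. Mapk8ip3 had 1.96 and 193 CPM. Mapk8ip1 was the exception, with a median of 34.4 CPM in glia-rich wells and 30.9 CPM in the others. Of the 12 mice with both kinds of wells, the mean of the other wells was higher in all 12 for Map2k4, Mapk9, Mapk10 and Mapk8ip3, and in 4 for Mapk8ip1. The wells were split by the share of reads on glial markers alone, with no neuron marker and no member, and wells of a mouse share their source, so these values are given without a test.

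**Figure D3:**
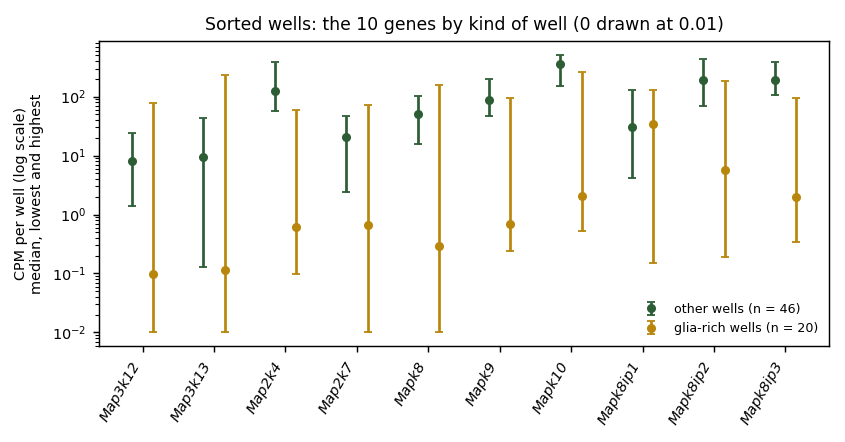
CPM per well of each member on a log axis in the 20 glia-rich wells and the 46 other wells of sorted neurons, as the median with the lowest and highest well, where 0 is drawn at 0.01. The medians of the glia-rich wells lie far below the others for every member except Mapk8ip1, and single glia-rich wells reach the range of the others for all members but Mapk8ip3.

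The second set of comparisons asked whether SNI or SCI changed the members in sorted neurons. No member was called in any of the 8 comparisons by edgeR, with all wells or without the glia-rich wells. With all wells 0.502% of 23507 genes were called for SNI 1d against naive, 0.2% for SNI 3d, 0.00851% for SCI 1d and 0.0% for SCI 3d, where 1964 genes had an unadjusted p under 0.05. Without the glia-rich wells these shares of 22620 genes were 7.59%, 6.98%, 0.208% and 0.0%, the last with 3189 genes at an unadjusted p under 0.05. For the 4 comparisons between injured groups 0.0% of genes were called with all wells, where 2055 to 2463 genes had an unadjusted p under 0.05, and without the glia-rich wells 0.858% were called for SNI 1d against SCI 1d and 0.0% for the others, where 1233 to 1829 genes had an unadjusted p under 0.05. Fitted fold changes are taken after 2 factors of unwanted variation and can differ from the ratio of the CPM values. The standard errors of the members lay between 0.224 and 1.03 for SNI 1d with all wells, and without the glia-rich wells between 0.136 and 0.603. DESeq2 with all wells called 1 member for SNI 3d against naive, Mapk9, where it called 9.08% of all genes, and 1 for SNI 3d against SCI 3d, Map2k7, where it called 4.68%. Over the 9 comparisons of both kinds of sample there were 90 tests of a member.

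Against naive mice, 8 of 10 members had lower fitted levels for SNI 1d, 5 for SNI 3d, 7 for SCI 1d and 8 for SCI 3d. Of all genes 42.7%, 52.5%, 41.8% and 48.3% were lower in this order. The 4 comparisons share the naive mice. The median log2 fold change of the members was -0.28, -0.043, -0.15 and -0.23 in this order, beside 0.15, -0.042, 0.16 and 0.019 over all genes. Without the glia-rich wells the medians were -0.23, -0.052, -0.21 and -0.21, beside 0.39, 0.38, 0.37 and 0.30 over all genes. The median standard error over all genes was 1.11 or more in these 8 fits, above the median of the members.

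DLK and LZK spread most widely. Map3k12 ran from 5.92 to 44.3 CPM with a median of 9.18 CPM in naive mice, and had 5.90, 6.04, 12.9 and 6.35 CPM at SNI 1d and 8.80, 9.39, 0.0778 and 8.34 CPM at SNI 3d. It had 12.9, 8.82, 24.4 and 5.49 CPM at SCI 1d and 10.0, 14.9, 0.0230 and 2.70 CPM at SCI 3d. The mice near 0 are the 2 whose wells were all glia-rich, and the groups overlapped with the naive mice. The 95% interval of SNI 1d against naive reached up to 1.08 on the log2 scale. Map3k13 ran from 0.156 to 26.5 CPM in naive mice and reached 101.3 CPM in SNI 3d replicate 3, and no comparison of either gene had a p under 0.05. High Map3k12 values also came from glia-rich wells. Without those wells naive replicate 5 had 12.85 CPM in place of 44.3 CPM. SCI 1d replicate 3 then had 1.54 CPM in place of 24.4 CPM, and SNI 1d replicate 3 had 2.21 CPM in place of 12.9 CPM. Naive replicate 6 went the other way, from 8.40 to 27.4 CPM. Every injured group still overlapped the naive mice.

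Map2k4 had an unadjusted p under 0.05 in the SCI 3d comparisons with all wells. It ran from 50.4 to 174.8 CPM with a median of 94.8 CPM in naive mice, and had 144.4, 117.7, 79.2 and 119.7 CPM at SCI 1d and 110.1, 155.0, 0.529 and 55.5 CPM at SCI 3d. The SCI 3d mice were spread over and below the naive range. The fitted log2 fold change of SCI 3d was -1.61 ± 0.67 (SE) against naive (p = 0.0257, adjusted p = 0.593 in edgeR) and -1.36 against SCI 1d (p = 0.0492, adjusted p = 0.487), where 8.35% and 10.3% of all genes had an unadjusted p under 0.05. The exact permutation test gave p = 0.467 and 0.314 for these comparisons, two-sided. Without SCI 3d replicate 3, whose wells were all glia-rich, the first value was -0.42, and without all glia-rich wells it was -0.26. At SNI 1d Map2k4 had 72.1, 89.6, 70.5 and 86.0 CPM, and without the glia-rich wells 94.0, 113.5, 96.3 and 97.9 CPM against a naive range of 102.2 to 187.6 CPM. That difference had a log2 fold change of -0.48 ± 0.24 (adjusted p = 0.251), and an exact permutation p of 0.0381 where 6.71% of all genes had an exact p under 0.05.

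SNI 3d mice had the highest Map2k7 values of the injured groups, and no difference passed edgeR's test over all genes. With all wells it had 23.5, 24.0, 40.9 and 29.9 CPM at SNI 3d, 11.3, 18.8, 15.5 and 20.0 CPM at SNI 1d, and 13.9, 18.9, 3.11 and 10.9 CPM at SCI 3d. Every SNI 3d mouse was above every SNI 1d and SCI 3d mouse, and naive mice ran from 3.38 to 24.4 CPM. Against SCI 3d the log2 fold change was 1.54 ± 0.62 (SE; p = 0.0210, adjusted p = 0.565 in edgeR), with a 95% interval from 0.26 to 2.83, where 8.74% of all genes had an unadjusted p under 0.05. It was 1.01 without SCI 3d replicate 3, whose wells were all glia-rich, and DESeq2 gave 1.53 with an adjusted p of 0.0773. The exact permutation p was 0.0286, the smallest that 4 against 4 mice allow, where 1.94% of all genes reached it. Within the sets of mice whose titles begin with FACS and FACS2018 the difference of mean log2(CPM + 1) was 0.52 (2 against 2 mice) and 2.36 (2 against 2 mice). Without the glia-rich wells SNI 3d had 27.3, 25.8 and 29.96 CPM and SCI 3d 14.3, 20.2 and 14.6 CPM, again with no overlap, and the log2 fold change was 0.76 ± 0.33 (p = 0.0354, adjusted p = 0.670). In that comparison of 3 against 3 mice 12.3% of all genes did not overlap, and the exact test cannot go below 0.10. Against SNI 1d the log2 fold change was 1.01 ± 0.60 with all wells (adjusted p = 0.569, exact permutation p = 0.0286, where 1.99% of all genes reached it). It was 0.54 without SNI 3d replicate 3, also with glia-rich wells alone, and 0.45 without the glia-rich wells. Against naive it was 0.86 ± 0.56 (adjusted p = 0.526, exact permutation p = 0.0286, where 4.2% of all genes had an exact p under 0.05). It was 0.35 without naive replicate 6, 0.47 without SNI 3d replicate 3, and 0.40 with an exact permutation p of 0.262 without the glia-rich wells.

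Among the JNKs, Mapk9 at SNI 3d had the lowest edgeR p of any member in sorted neurons. It ran from 31.1 to 115.2 CPM with a median of 74.6 CPM in naive mice and had 53.3, 84.4, 3.995 and 89.1 CPM at SNI 3d. Only SNI 3d replicate 3, whose wells were all glia-rich, lay below the naive range. The fitted log2 fold change was -0.99 ± 0.31 (SE; p = 0.00503, adjusted p = 0.220 in edgeR), where 12.4% of all genes had an unadjusted p under 0.05. DESeq2 gave an adjusted p of 0.00792, and the exact permutation test gave 0.371. In edgeR it was called without naive replicate 5 (adjusted p = 0.0802) or naive replicate 6 (adjusted p = 0.0302), fits in which 995 and 1119 genes were called in place of 47. Without SNI 3d replicate 3 the fold change was -0.25, and without the glia-rich wells it was -0.36 (adjusted p = 0.350). Mapk10 ran from 106.7 to 410.8 CPM in naive mice, and over the injured groups from 67.7 to 346.6 CPM. Its standard error was the smallest of the members in all 8 comparisons with all wells. Without the glia-rich wells its lowest mouse had 212.1 CPM and its highest 487.6 CPM. Mapk8 ran from 16.4 to 63.7 CPM over all sorted mice. Neither Mapk8 nor Mapk10 had a p under 0.05 in any comparison.

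Of the scaffolds, Mapk8ip1 and Mapk8ip3 had values with p under 0.05, all of them without the glia-rich wells. Mapk8ip1 then had 24.1, 23.1, 21.6 and 24.0 CPM at SCI 1d, and naive mice ran from 25.4 to 76.0 CPM with a median of 29.5 CPM. All 4 SCI 1d mice were below all 6 naive mice, at the nearest 24.1 against 25.4 CPM. The lowest and highest naive mice, replicates 5 and 6, each had 2 of 3 wells left out here. Leaving out single mice was not run in this setting. The log2 fold change was -0.64 ± 0.26 (SE; p = 0.0264, adjusted p = 0.234 in edgeR) and the exact permutation p was 0.00952, the smallest that 4 against 6 mice allow. The groups did not overlap for 0.743% of all genes in that comparison, and 17.1% had an unadjusted p under 0.05. Within the FACS and FACS2018 titles the difference was -0.42 (2 against 4 mice) and -0.92 (2 against 2 mice). With all wells the 4 mice had 32.0, 26.7, 34.8 and 22.5 CPM and overlapped the naive mice at 13.0 to 43.5 CPM, and the log2 fold change was -0.078. At SNI 1d Mapk8ip1 had 18.5, 32.8, 21.98 and 17.2 CPM without the glia-rich wells, where 3 of 4 mice were below all naive mice, with a log2 fold change of -0.67 ± 0.26 (p = 0.0206, adjusted p = 0.149), where 22.4% of all genes had an unadjusted p under 0.05. Mapk8ip1 is also the member whose medians were alike in both kinds of wells, and the part of this in the result was not tested.

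Mapk8ip3 had 280.1, 241.4 and 247.9 CPM at SNI 3d without the glia-rich wells, and 212.0, 199.1, 175.8 and 171.9 CPM at SNI 1d. At SCI 3d it had 239.4, 187.0 and 137.7 CPM, and at SCI 1d 151.4, 185.2, 167.7 and 139.2 CPM, while naive mice ran from 171.3 to 252.6 CPM. The 3 SNI 3d mice were above all SNI 1d and SCI 3d mice. Their log2 fold change was 0.44 ± 0.19 (SE) against SNI 1d (p = 0.0328, adjusted p = 0.604) and 0.44 ± 0.20 against SCI 3d (p = 0.0426, adjusted p = 0.673). Of all genes 8.09% and 7.33% had an unadjusted p under 0.05 in these comparisons, and 6.14% and 12.3% did not overlap. SCI 1d was lower than naive by -0.31 ± 0.16 on the log2 scale (adjusted p = 0.342, exact permutation p = 0.0286, where 3.3% of all genes had an exact p under 0.05). With all wells SNI 3d replicate 3 had 9.81 CPM, and the fitted differences had the opposite sign, -0.072 from SCI 3d and -0.31 from SNI 1d. Mapk8ip2 ran from 85.3 to 268.3 CPM over the mice without the glia-rich wells and had no p under 0.05.

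**Figure D4:**
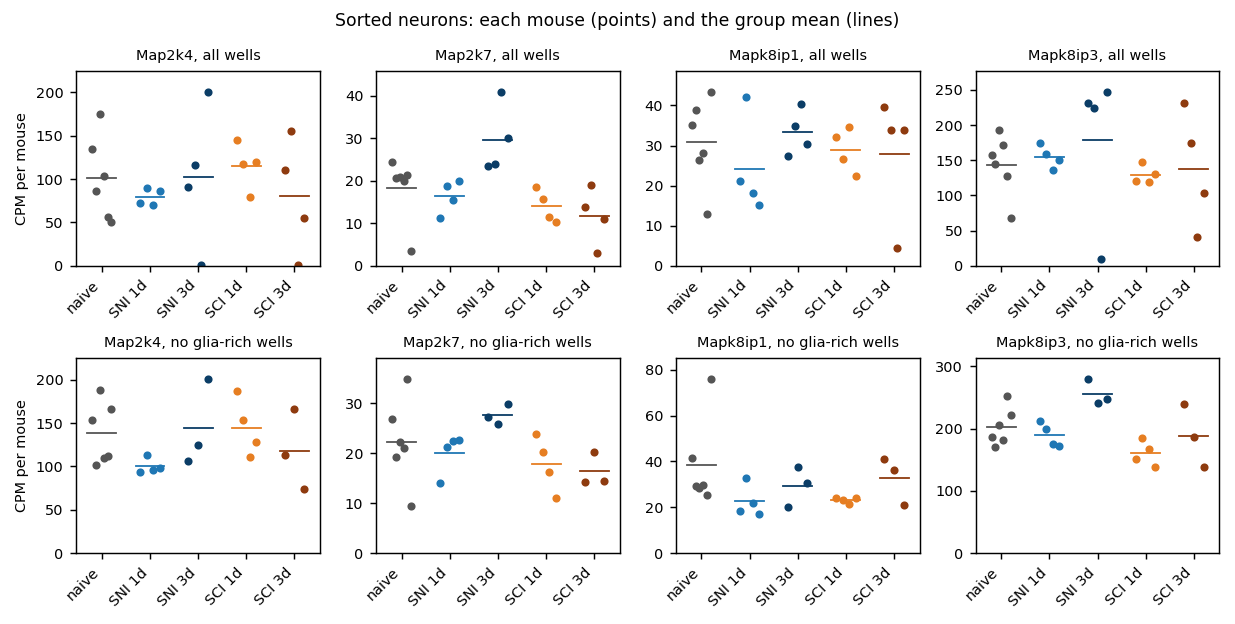
CPM of Map2k4, Map2k7, Mapk8ip1 and Mapk8ip3 in each mouse of sorted neurons (points) with the group mean (lines), with all wells in the upper row and without the glia-rich wells in the lower row. Map2k7 is higher in every SNI 3d mouse than in every SNI 1d and SCI 3d mouse in both rows, and Mapk8ip1 at SCI 1d lies below the naive mice in the lower row only.

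**Figure D5:**
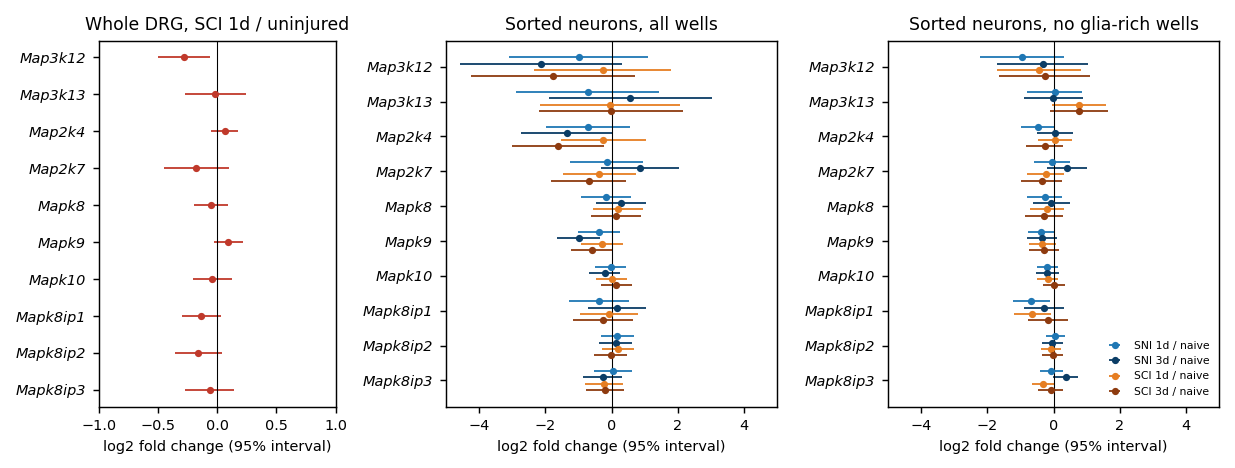
Fitted log2 fold change of each member with its 95% interval, for SCI 1d in whole DRG (axis from -1 to 1) and for 4 injury groups against naive in sorted neurons with all wells and without the glia-rich wells (axes from -5 to 5). The whole DRG intervals lie between -0.50 and 0.24, and with all wells the intervals of Map3k12 and Map3k13 are the widest in sorted neurons.

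The targets of the pathway were measured in the same sorted mice. Atf3 ran from 14.2 to 224.9 CPM in naive mice and had 873.8, 582.9, 1305 and 1174 CPM at SNI 1d and 923.2, 435.5, 512.2 and 523.5 CPM at SNI 3d. No SNI mouse overlapped a naive mouse, and Atf3 rose by 3.79 ± 0.65 (SE; adjusted p = 0.0530) and 3.08 ± 0.64 (adjusted p = 0.0954) on the log2 scale. These calls were lost without RUVr factors (adjusted p = 0.267 and 0.243) and with the replicate block in place of the factors (adjusted p = 0.240 and 0.421). After SCI it had 92.2, 63.4, 168.0 and 313.6 CPM at 1d and 317.2, 32.2, 168.4 and 177.8 CPM at 3d, which overlapped the naive mice, with log2 fold changes of 1.16 (adjusted p = 0.461) and 1.34 (adjusted p = 0.594). The difference between SNI and SCI was 2.62 at 1d (p = 0.00169, adjusted p = 0.460 in edgeR and 0.00958 in DESeq2) and 1.75 at 3d (adjusted p = 0.565). Jun had log2 fold changes of 0.70 (adjusted p = 0.418) at SNI 1d and 0.53 (adjusted p = 0.580) at SNI 3d, and of -0.28 and -0.25 after SCI. Without the glia-rich wells Atf3 rose by 3.75 at SNI 1d (adjusted p = 0.0122 in edgeR) and 2.92 at SNI 3d (adjusted p = 0.0459). After SCI it then had 0.545 at 1d (adjusted p = 0.750) and 1.08 at 3d (adjusted p = 0.561). Jun then had 0.74 at SNI 1d (adjusted p = 0.138) and 0.68 at SNI 3d (adjusted p = 0.1895), and -0.21 and -0.19 after SCI. Of the 41 further pathway genes, Atf3 was the only one called with all wells in the comparisons with naive mice. In those fits 0.502% of all genes were called at SNI 1d and 0.2% at SNI 3d. Without the glia-rich wells none passed after SCI, where 0.208% of all genes were called at 1d and 0.0% at 3d. In that setting 2 of 41 rose at SNI 1d and 5 at SNI 3d, where 7.59% and 6.98% of all genes were called in either direction. Besides Atf3 these were Hsp90aa1 at both times and, at SNI 3d, Stmn2, Map2 and Map2k3. Hsp90aa1, a chaperone that stabilises DLK, rose by 0.34 at SNI 1d (adjusted p = 0.0946) and 0.37 at SNI 3d (adjusted p = 0.0993). Both values were below the median over all genes in these fits, 0.39 and 0.378. Hsp90aa1 overlapped the naive mice (281.9 to 447.3 CPM), with 363.8 to 440.2 CPM at SNI 1d and 371.3 to 458.1 CPM at SNI 3d. Map2 and Map2k3 at SNI 3d also overlapped the naive mice, and Stmn2 did not. Stmn2, a JNK substrate on axonal microtubules, rose by 1.17 ± 0.32 at SNI 3d (adjusted p = 0.0603). Hsp90aa1, Stmn2, Map2 and Map2k3 were named after their values were seen.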

How the data were processed

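RNA sequencing of 8 whole DRG libraries and 66 sorted wells from 22 mice was used, 74 libraries of 30 mice in all. The deposited files hold raw counts of reads per gene that the authors made from reads aligned to the mouse genome. The submitters' processing notes name STAR 2.5.3a, HTSeq 0.6.1, cutadapt and DESeq2 and the builds mm10 and GRCm38. The strand setting of the counting is not given in the sources used here. Another 7 deposited tables hold fold changes and p-values of the authors' own comparisons and 123 per-sample columns, and none of these was used. Some of these columns are whole DRG libraries of wild type and DLK knockout mice after SNI. The members are therefore not described here in whole DRG after SNI or without DLK.

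Counts of the 3 wells of a mouse were summed, so that n counts mice. For whole DRG, edgeR's quasi-likelihood test (TMM scaling) was run on genes whose mean count reached 10. For sorted neurons, 1 fit of the 22 mice with 2 RUVr factors took every gene that reached 20 reads in any mouse. P-values were adjusted over all genes by Benjamini-Hochberg, and genes under 0.1 were called. CPM values of single genes per mouse are TMM-scaled, and the summed CPM values of marker lists are not. Single genes were also compared with a two-sided exact permutation test on log2(CPM + 1), which cannot go below 0.0286 for 4 against 4 mice. Intervals are 95%. Wells were split into glia-rich and other at the widest gap in their share of reads on glial markers. The scripts were tested on simulated data. All 10 members are given in whole DRG. In sorted neurons a member is given with its test where the exact or the unadjusted edgeR p was under 0.05. Other pathway genes are those called in whole DRG, with Jun and Atf3. The members and lists were chosen with earlier results of these data known. Alternatives included DESeq2, other filters, numbers of RUVr factors, a replicate block and leaving out each mouse. Tools were R 4.3.3, edgeR 4.0.16, DESeq2 1.42.0 and Python 3.11.15.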

Additional observations from a re-analysis of the deposited data

Results flagged for a closer look

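Of 70 sets of 1 member in 1 group, 14 held a mouse that stood apart from the rest of its group by Dixon's criterion, which chance meets in about 1 of 20 groups. In whole DRG, uninjured replicate 1 was highest for Map3k12 (79.4 CPM, next 62.7), Map2k7 (76.6 CPM, next 55.5), Mapk8ip1 (696.8 CPM, next 581.6) and Mapk8ip2 (811.9 CPM, next 633.5). SCI replicate 3 was highest for Map3k13 (20.9 CPM, next 15.7) and Mapk9 (292.8 CPM, next 274.7). These mice also had the highest large-fibre marker sums of their groups, 4535 and 4771 CPM, and the lowest neuron marker sums, 6840 and 7294 CPM. Nefh made up most of the large-fibre sums, with 2746 to 4204 CPM in uninjured mice and 2759 to 3993 CPM after SCI. The sums do not show how Pvalb, Ntrk3 and Ldhb went.

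In sorted neurons, naive replicate 5 was highest for Map3k12 (44.3 CPM, next 10.2) and naive replicate 6 lowest for Map2k7 (3.38 CPM, next 19.9). In both mice 2 of 3 wells were glia-rich. SNI 1d replicate 3 was highest for Map3k12 (12.9 CPM, next 6.35), and had 2.21 CPM without its glia-rich well. SNI 3d replicate 3, with all 3 wells glia-rich, was lowest for Map3k12 (0.0778 CPM, next 8.34), Mapk8ip2 (65.5 CPM, next 151.6) and Mapk8ip3 (9.81 CPM, next 224.3) and highest for Map3k13 (101.3 CPM, next 9.38). SCI 3d replicate 3, also with all 3 wells glia-rich, was lowest for Mapk8ip1 (4.53 CPM, next 33.9).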

How the results depend on the processing

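No member was called in whole DRG under any alternative, and in sorted neurons members were called by edgeR only for Mapk9 at SNI 3d, where leaving out 1 mouse gave 0 to 1 members called. DESeq2 called 1 member for SNI 3d against naive and 1 for SNI 3d against SCI 3d. In whole DRG 202 genes were called at an adjusted p under 0.05, 929 by DESeq2 and 127 with the replicate number as a block, in place of 408, and leaving out 1 mouse gave 104 (without uninjured replicate 3) to 640 genes (without SCI replicate 3). The deviations of same-numbered mice of whole DRG had correlations of -0.228, 0.096, -0.114 and 0.335, and 1 of 4 numbers matched best with itself. Correlations of 4 pairs cannot show whether such mice share more than a number. In sorted neurons the median was 0.118 for the same set and number and -0.047 otherwise.

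For SNI 1d against naive the 118 genes called became 1506 by DESeq2, 225 with a mean count of at least 10, 9 with 1 RUVr factor, 0 without RUVr factors or with the title set (FACS or FACS2018) as a term, 1 with the replicate block, 1716 without the glia-rich wells, 39 without those wells and RUVr factors, 2 with naive mice of the same day, and 1 at an adjusted p under 0.05. For SNI 3d the 47 genes became 2135 by DESeq2, 11 with DESeq2 size factors, 139 with a mean count of at least 10, 1580 without the glia-rich wells, 14 without those wells and RUVr factors, 192 with naive mice of the same day and 3 at an adjusted p under 0.05. They became 0 with 1 or no RUVr factor, uncentred residuals, the title set or the replicate block. For SCI 1d the 2 genes became 1149 by DESeq2, 6 with a mean count of at least 10, 47 without the glia-rich wells, 0 without those wells and RUVr factors, and 1 with 1 or no RUVr factor, uncentred residuals, the title set or an adjusted p under 0.05. DESeq2 called 905 genes for SCI 3d, 1089 for SNI 1d against SCI 1d (194 by edgeR without the glia-rich wells), 1101 for SNI 3d against SCI 3d, 993 for SNI 3d against SNI 1d and 998 for SCI 3d against SCI 1d, in place of 0. Leaving out 1 mouse gave 1 to 137 genes for SNI 1d, 2 to 1119 for SNI 3d (the highest without naive replicate 6), 1 to 4 for SCI 1d, 0 to 3 for SCI 3d, 0 to 1 for SNI 1d against SCI 1d, 0 to 3 for SNI 3d against SCI 3d and 0 to 4 for SNI 3d against SNI 1d. Without the glia-rich wells the members with an exact permutation p under 0.05 numbered 1 in place of 0 for SNI 1d, 0 in place of 1 for SNI 3d and 2 in place of 0 for SCI 1d.

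Some log2 fold changes turned sign, all of them from values that were not called. Mapk8ip1 at SCI 1d was 0.023 with naive mice of the same day. Mapk8ip3 at SCI 1d was 0.33 with uncentred residuals and 0.037 with the title set. Mapk8ip3 at SNI 3d against SCI 3d was 0.055 with a mean count of at least 10, 0.37 and 0.066 with no and 1 RUVr factor, 0.45 with the title set, 0.31 with the replicate block, 0.44 without the glia-rich wells and 0.45 without those wells and RUVr factors. Against SNI 1d it was 0.20 without RUVr factors, 0.13 with the title set, 0.44 without the glia-rich wells and 0.435 without those wells and RUVr factors. Leaving out 1 mouse gave -0.136 to 0.038 for Map3k13 and -0.125 to 0.019 for Mapk8ip3 in whole DRG, -0.398 to 0.09 for Mapk8ip1 and -0.505 to 0.092 for Jun at SCI 1d, -0.474 to 0.066 for Jun at SCI 3d, and -0.352 to 0.811 (SNI 3d against SCI 3d) and -0.575 to 0.486 (SNI 3d against SNI 1d) for Mapk8ip3. In sorted neurons Atf3 kept a positive sign throughout but lost its call under several settings, with adjusted p-values of up to 0.267 for SNI 1d (no RUVr factor) and 0.421 for SNI 3d (replicate block). The cause of these changes was not tested. Depth was not low for most members, but the biological coefficient of variation was 1.2 in sorted neurons and 0.133 in whole DRG, which limits the sizes that sorted neurons can show.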
